A study of Mus musculus with 4 samples.

Results

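The cells described here were 264 T cells from mouse mammary tumours that carried transcripts of Cd4, the coreceptor of helper and regulatory T cells, and no transcript of Cd8a or Cd8b1, which encode the coreceptor of cytotoxic T cells. They were chosen by their own transcript counts among 17211 sorted leukocytes, as cells that the authors had classed as T cells, with at least 1 unique molecular identifier (UMI, a tag that marks 1 captured transcript) of Cd4 and 0 of Cd8a and Cd8b1. They are called Cd4-only cells below, and Foxp3+ or Foxp3- according to whether a UMI of Foxp3, the lineage factor of regulatory T cells, was present. Cd4, Cd8a, Cd8b1 and Foxp3 chose or split the cells, so their values are descriptions and support nothing else. The tumours had been injected with a control plasmid or an IL-12 plasmid and then electroporated, a pulse of current that lets plasmid enter cells. For each treatment, live CD45+ cells from 3 animals were combined into 1 pool, which was made into a 5′ gene expression library and a library of T cell receptors. The labels describe the tumours as triple-negative in one place and, in another, as tumours that followed HER2 induction in the mammary tissue of mice aged 1 month, and the library names in the files begin with 4T1, the name of a mouse mammary tumour line; strain, genotype and the time from treatment to sorting are not given in the sources used here. Control tumours also received plasmid and electroporation, so the comparison is between plasmids.

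CD4 T cells recognise peptides on MHC class II molecules and act mainly through cytokines and costimulation. Activated cells can take the Th1 state, marked by interferon-gamma (Ifng) and the chemokine receptor Cxcr3 and promoted by IL-12, or the Th2 state, which depends on the transcription factor Gata3 and is known for Il4, Il5 and Il13. Regulatory T cells express Foxp3 and restrain other T cells; those in tissues often carry Gata3, the IL-33 receptor gene Il1rl1 and amphiregulin (Areg).

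The control library gave 79 Cd4-only cells and the IL-12 library 185. Pairs of values are given control first and IL-12 second unless stated. The cells held a median of 3509 UMIs per cell (range 1072 to 12031) in the control library and of 4255 (1255 to 15529) in the other, and 332344 and 938459 UMIs in all. Median depth over all cells was 3021 and 3418 UMIs. With 1 library per treatment, no test of treatment was possible: shares carry exact binomial 95% intervals and levels and folds carry exact Poisson or conditional 95% intervals, all of which cover counting error only. Treatment, mice, tumours and preparation cannot be told apart. Levels are UMIs per 1000000 UMIs of the cells compared (CPM). Libraries shared 87 cell barcodes; 1 control and 3 IL-12 Cd4-only cells carried such a barcode, and no barcode belonged to a Cd4-only cell in both.

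Markers of T cells were present in nearly all of these cells. A UMI of Cd3d, Cd3e or Cd3g, subunits of the T cell receptor complex, was found in 75 of 79 control cells (94.9%) and 183 of 185 IL-12 cells (98.9%). Cd3e was detected in 82.3% and 91.4% (643.9 and 801.3 CPM), against 3.16% and 7.11% of neutrophils, whose median depths were 2524 and 2553 UMIs. In macrophages, with median depths of 5514 and 7211 UMIs, it was detected in 6.79% and 21.3%. These values serve as background, and free RNA and doublets were not told apart in them. Icos, a costimulatory receptor of activated helper and regulatory cells, was detected in 84.8% and 90.8%, against 1.47% and 4.15% of neutrophils and 5.92% and 16% of macrophages. It was also detected in 81.7% and 79.8% of T cells with Cd8 and no Cd4 UMI, whose median depths were 5312 and 5655 UMIs. Icos detection is therefore not particular to Cd4-only cells among T cells. Cd40lg, the CD40 ligand that helper cells present, was detected in 15.2% and 13%. The authors' own class did not follow the coreceptor: 28 of 79 control cells (35.4%) and 96 of 185 IL-12 cells (51.9%) stood in the class called CD4 T cells, and the others in the class called CD8 T cells. Of 4 natural killer genes, Ncr1 and Klrb1c were at 0 UMIs in both libraries, Eomes had 4 and 3 UMIs and Klre1 0 and 3; the NKT gene Zbtb16 was at 0, and the gamma-delta receptor genes searched for are not in the table. Neutrophil markers were the exception. All 5 were detected, at a summed 5160.3 CPM in control cells against 8511.8 CPM; their share of a cell's UMIs had a median of 0.193% and 0.0471% and reached 7.9% and 16%. The 5 macrophage markers summed to 195.6 and 385.7 CPM, with Csf1r and Adgre1 at 0 in control. Doublets were not called.

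Most of these cells held 1 or 2 UMIs of Cd4. In control, 35 had 1 Cd4 UMI, 21 had 2 and 23 had 3 or more, up to 11. In IL-12, 104 had 1, 44 had 2 and 37 had 3 or more, up to 15. The summed level of Cd4 was 613.8 and 364.4 CPM. Foxp3 was detected in 20%, 14.3% and 21.7% of the control groups and 26%, 31.8% and 16.2% of the IL-12 groups in that order. Just outside the rule stood 4 control and 31 IL-12 T cells with Cd4 and 1 Cd8 UMI, of which 0 and 9 held Foxp3, and 31 and 87 with Cd4 and 2 or more Cd8 UMIs, of which 0 and 11 held it.

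Cd4-only cells made up a smaller share of T cells in the IL-12 library. They were 79 of 828 T cells in control, 9.54% (7.63 to 11.7), and 185 of 4262 in IL-12, 4.34% (3.75 to 5). With every cell thinned to 1000 UMIs before the rule was applied, the shares were 5.93% and 1.98%. T cells with Cd8 and no Cd4 UMI, called Cd8-only cells below, were 584 (70.5%) and 3494 (82%), T cells with neither coreceptor 130 (15.7%) and 465 (10.9%), and T cells with both 35 and 118. A Cd8a UMI was found in 4.94% of neutrophils in the IL-12 library against 1.32% in control, and free RNA and doublets were not told apart there. A Cd4-only cell that gains 1 such UMI leaves the group. The part of such UMIs in the difference was not tested.

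Foxp3 was detected in 15 of 79 control Cd4-only cells, 19% (11 to 29.4), and 47 of 185 IL-12 cells, 25.4% (19.3 to 32.3). The intervals overlapped, and the summed level was alike at 156.5 and 154.5 CPM. Thinned to 1000 UMIs, 11.4% and 12.4% of the same cells kept a Foxp3 UMI. Foxp3+ cells were no shallower than Foxp3- cells in IL-12 (medians of 4427 and 4253 UMIs) and about as deep in control (3320 and 3621). Among neutrophils a Foxp3 UMI was found in 0 of 2721 control cells, which allows a share of up to 0.11% by a limit of 3 counts, and in 0.169% of IL-12 cells. Among macrophages it was found in 0 of 574 control cells and 0.999% of IL-12 cells.

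The Foxp3+ T cells of each library were also counted by coreceptor transcript. Of 20 control Foxp3+ T cells, 15 were Cd4-only (75%, 50.9 to 91.3), 4 had neither coreceptor and 1 was Cd8-only. Of 154 IL-12 Foxp3+ T cells, 47 were Cd4-only (30.5%, 23.4 to 38.4), 59 had neither (38.3%, 30.6 to 46.5), 28 were Cd8-only (18.2%, 12.4 to 25.2) and 20 had both (13%, 8.12 to 19.3). These shares rest on the genes of the rule and on 1 library per treatment, and are given as a description. Within T cells that had neither coreceptor UMI, Foxp3 was found in 3.08% (0.845 to 7.69) of those in control and, in the IL-12 library, in 12.7% (9.8 to 16.1); their median depths were 3601 and 3835 UMIs. The Cd4-only rule therefore held most Foxp3+ T cells of the control library and fewer than 1 in 3 of the IL-12 library.

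**Figure D1:**
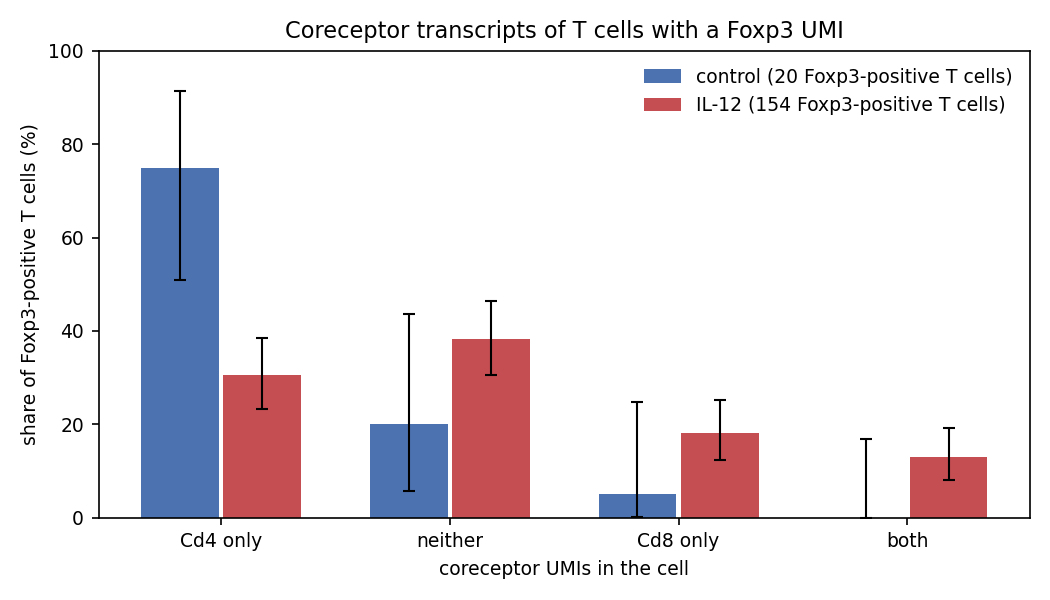
Share of Foxp3+ T cells (%, y axis) by the coreceptor transcripts of the cell (x axis) in the control (blue) and IL-12 (red) library, with exact binomial 95% intervals as error bars. Cd4-only cells held 75% of the control and 30.5% of the IL-12 Foxp3+ T cells.

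The Cd4-only cells lay in different clusters of the authors in each library. In control, 44 (55.7%) were in cluster 8 and 28 (35.4%) in cluster 9. In IL-12, 96 (51.9%) were in cluster 9, 59 (31.9%) in cluster 5 and 28 (15.1%) in cluster 12. Clusters 5, 8 and 12 belong to the class called CD8 T cells and cluster 9 to the class called CD4 T cells. Every comparison of treatments below therefore sets mostly cluster 8 and 9 cells against mostly cluster 9, 5 and 12 cells, and a cluster held mainly by 1 library may be that library. Cluster 12 carried the neutrophil transcripts: S100a9, a calcium-binding protein abundant in neutrophils, stood at 19782.5 CPM there against 344.4 in cluster 9 and 150.1 in cluster 5 of the same library. Foxp3 was detected in 15.9% and 17.9% of control cells of clusters 8 and 9, and in 21.9%, 30.5% and 25% of IL-12 cells of clusters 9, 5 and 12.

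**Figure D2:**
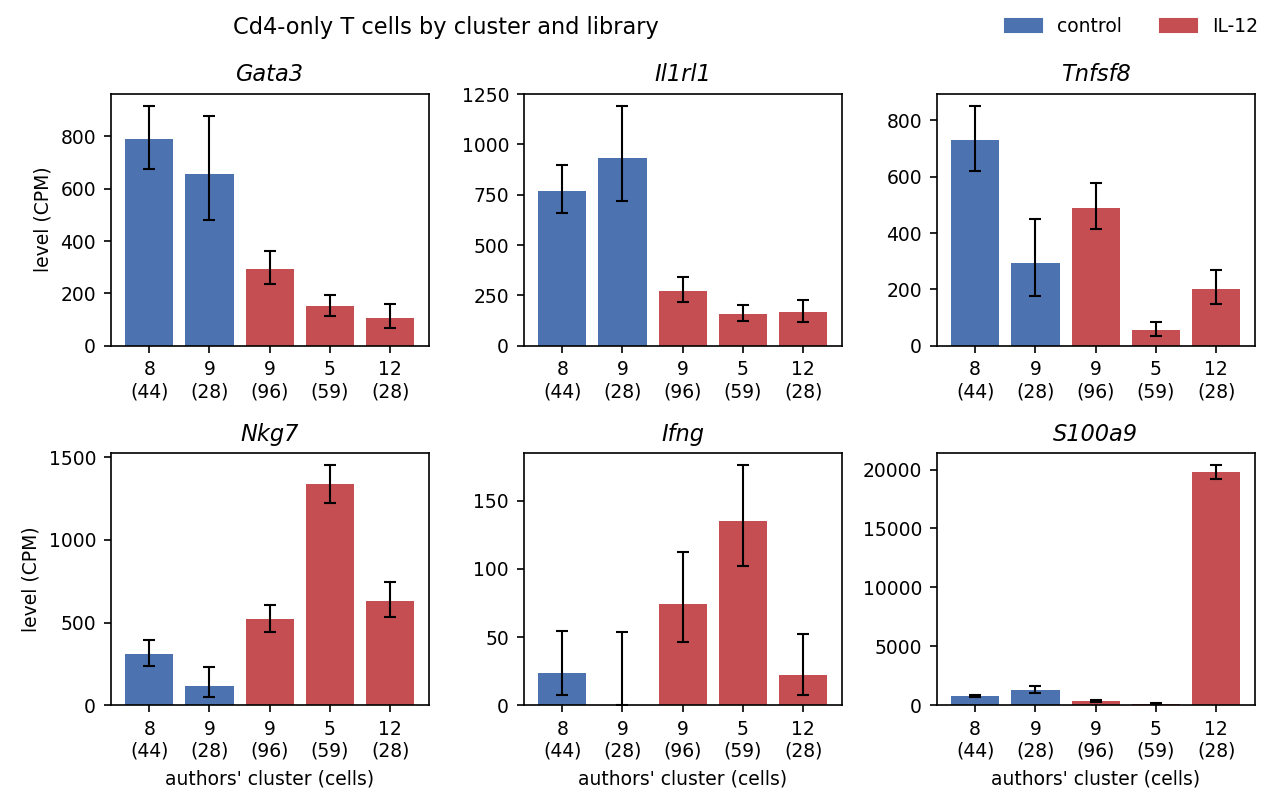
Levels (CPM, y axis) of 6 genes in Cd4-only cells by the authors' cluster (x axis, number of cells in brackets) in the control (blue) and IL-12 (red) library, with Poisson 95% intervals. Gata3 and Il1rl1 were higher in both control clusters than in each of the 3 IL-12 clusters, and S100a9 stood at 19782.5 CPM in cluster 12.

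The genes of the Th2 state were the clearest group at lower levels in IL-12. A gene is called here when its levels differ by 2-fold or more; over the 2792 genes measured (at least 50 UMIs in all and a UMI in at least 5% of either library's cells), 11.4% were called higher in IL-12 and 15.1% lower. Of 7 Th2 genes listed, 6 are in the table and 4 held 20 UMIs or more, and all 4 (Gata3, Il1rl1, Il5 and Il13) were called lower, with a median log2 ratio of -1.71; over all 5054 genes with 20 UMIs or more, 18.2% were called lower and the median was -0.22. The direction of this list was in part known when it was drawn up. Il4 had 3 and 6 UMIs, too few to compare.

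Gata3, the master regulator of Th2 cells that is also expressed in tissue regulatory T cells, stood at 677.0 CPM (225 UMIs) in control cells against 183.3 CPM (172 UMIs). It was detected in 62% and 36.2% of cells, and after thinning in 30.4% and 13.5%, against 0.331% and 0.677% of neutrophils. The level was 3.69-fold (3.02 to 4.53) lower in IL-12. Il1rl1, whose product binds the alarmin IL-33, stood at 722.1 and 193.9 CPM, 3.72-fold (3.06 to 4.54) lower in IL-12, and was detected in 36.7% and 29.2% of cells, or 29.1% and 14.1% after thinning. Both genes were lower in each IL-12 cluster than in each control cluster: Gata3 stood at 789.5 and 656.9 CPM in control clusters 8 and 9 and at 293.8, 150.1 and 107.6 CPM in IL-12 clusters 9, 5 and 12. In cluster 9 alone, which both libraries fill, the log2 ratios were -1.16 for Gata3 and -1.77 for Il1rl1. Among Cd8-only cells Gata3 stood at 58.5 and 39.5 CPM, a log2 ratio of -0.55, and Il1rl1 was nearly absent at 0.603 and 3.35 CPM.

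The Th2 cytokines came from a few cells. Il5, the growth factor of eosinophils, was found in 5 control and 6 IL-12 cells, at 219.7 and 76.7 CPM; 48 of 73 control UMIs lay in 1 cell. Il13, which acts on epithelium and macrophages, was found in 5 and 9 cells at 255.8 and 87.4 CPM, with 50 of 85 control UMIs in 1 cell. The log2 ratios of -1.51 and -1.54 became -0.73 and -0.84 without the cell that held most UMIs of the gene in each library. In all, 7 control and 12 IL-12 cells held an Il5 or Il13 UMI. All 7 and 10 of the 12 also held Gata3, 5 and 5 held Il1rl1, and none held Foxp3. Type 2 innate lymphoid cells also express these genes. All 7 and all 12 cells held a Cd3 UMI, but so did 94.9% and 98.9% of all Cd4-only cells, which were chosen among T cell classes. A recorded receptor clone was found for 5 and 11 of them, beside 49.4% and 80% of all Cd4-only cells. A part of innate lymphoid cells in these counts was not tested. Of the Il1rl1 cells, 29 of 29 and 54 of 54 held a Cd3 UMI and 14 and 43 had a clone. In cells with a recorded clone (39 and 148), Gata3 stood at 681.1 and 182.8 CPM and Il1rl1 at 583.2 and 197.6 CPM, while Il5 reversed, at 42 and 88.9 CPM (9 and 72 UMIs).

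The promoters of these genes are shown because Gata3 protein binds GATA motifs and the 4 genes of the list were called lower in IL-12, Il5 and Il13 from few cells. Windows are the 250 bases before a start site in RefSeq, build GRCm38.p6, written 5′ to 3′ on the strand of the gene. Capitals mark AGATAA, its variant with T first, TGATAA, its variant with G last, AGATAG, or the one with both changes, TGATAG, on either strand. The first start site of Il1rl1 (chr1:40429320-40429569, plus strand) is shown for its number of motifs, Il5 (chr11:53720544-53720793, plus strand) and Il13 (chr11:53634703-53634952, minus strand) as cytokine genes that were lower in IL-12, and Ifng (chr10:118440796-118441045, plus strand) as a Th1 gene that was higher.
Il1rl1: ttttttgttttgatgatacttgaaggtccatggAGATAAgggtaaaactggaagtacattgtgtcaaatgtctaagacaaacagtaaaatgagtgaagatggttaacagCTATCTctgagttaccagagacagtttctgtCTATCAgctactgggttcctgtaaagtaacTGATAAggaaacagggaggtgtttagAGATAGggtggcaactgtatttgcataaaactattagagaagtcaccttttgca
Il5: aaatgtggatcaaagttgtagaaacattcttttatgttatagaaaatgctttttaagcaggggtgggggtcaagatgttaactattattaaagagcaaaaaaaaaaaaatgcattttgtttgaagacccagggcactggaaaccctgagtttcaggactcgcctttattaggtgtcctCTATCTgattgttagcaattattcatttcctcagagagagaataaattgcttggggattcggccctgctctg
Il13: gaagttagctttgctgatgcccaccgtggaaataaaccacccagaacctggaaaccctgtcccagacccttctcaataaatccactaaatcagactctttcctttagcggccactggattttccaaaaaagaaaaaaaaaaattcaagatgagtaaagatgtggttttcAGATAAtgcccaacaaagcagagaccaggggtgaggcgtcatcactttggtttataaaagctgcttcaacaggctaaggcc
Ifng: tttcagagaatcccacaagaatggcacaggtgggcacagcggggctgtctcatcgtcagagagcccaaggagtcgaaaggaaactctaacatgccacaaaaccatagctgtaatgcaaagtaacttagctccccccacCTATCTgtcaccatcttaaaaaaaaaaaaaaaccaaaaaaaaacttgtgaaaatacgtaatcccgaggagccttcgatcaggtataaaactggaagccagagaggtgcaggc
The Il1rl1 window held 5 matches, which began 217, 141, 110, 80 and 54 bases before the start site, and its second start site held 1. Il5, Il13 and Ifng held 1 each and Gata3 none. A match was found in 8718 of 32851 windows of 27025 genes (26.5%), so single matches are common; 14 windows (0.0426%) held 5 or more. A match is a description of the sequence and not evidence of binding.

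**Figure D3:**
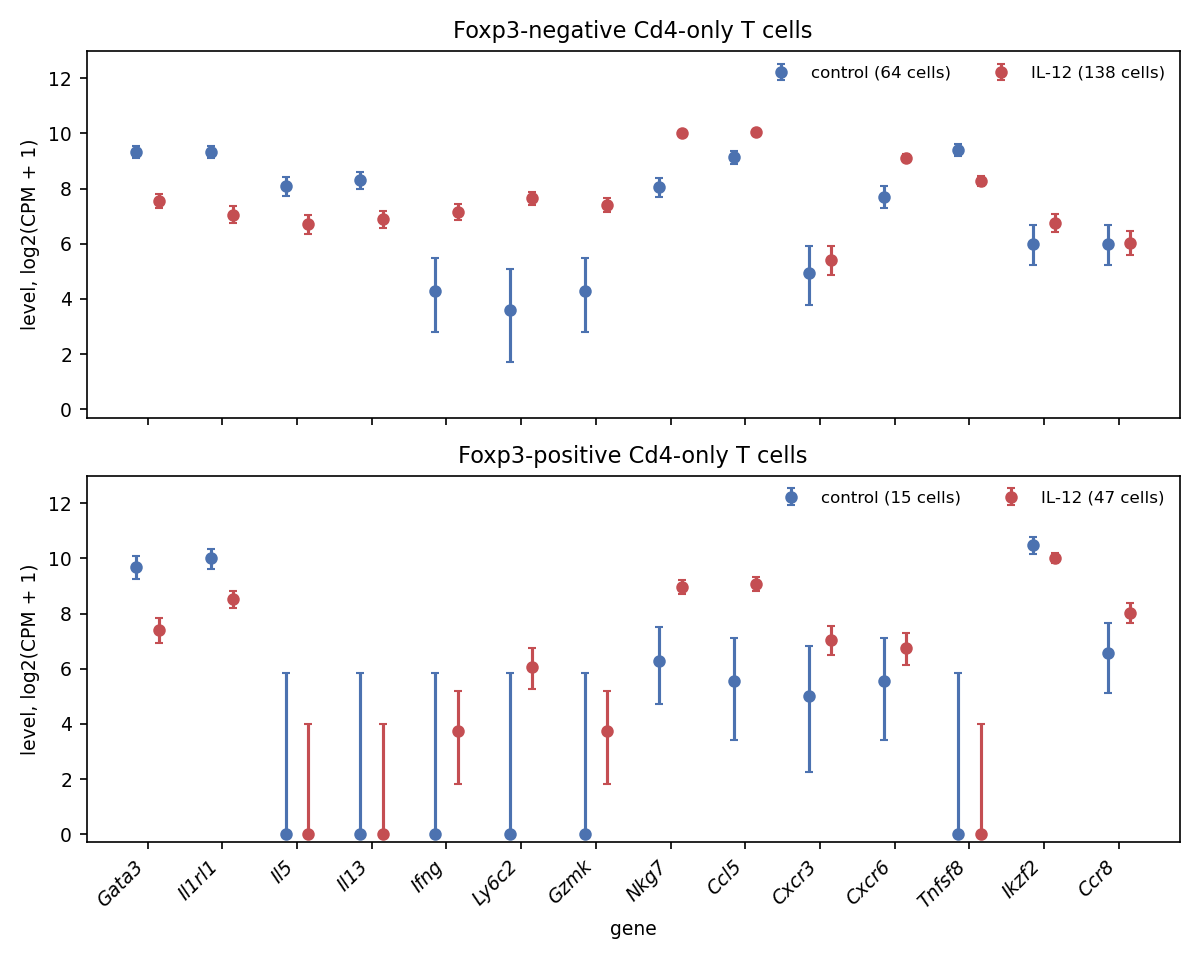
Levels of 14 genes (y axis, log2 of CPM plus 1) in Foxp3- (upper) and Foxp3+ (lower) Cd4-only cells of the control (blue) and IL-12 (red) library, with Poisson 95% intervals; points at 0 had no UMI. Gata3 and Il1rl1 were lower in IL-12 in both panels, while Il5, Il13 and Tnfsf8 had no UMI in Foxp3+ cells of either library.

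Among genes of the Th1 and cytotoxic states, more were called higher in IL-12 than lower. Of 13 Th1 genes with 20 UMIs or more, 6 were called higher (Ifng, Cxcr3, Ccl5, Cxcr6, Hopx and Tnf) and 1 lower (Runx3), with a median log2 ratio of 0.47; of 10 cytotoxic genes, 6 were higher (Gzmk, Prf1, Nkg7, Ctsw, Klrd1 and Ccl5) and 1 lower (Gzma), with a median of 1.12. Ccl5 is in both lists. Over all genes with 20 UMIs or more, 11% were called higher and 18.2% lower. Ifng, the main Th1 cytokine, had 5 UMIs in 2 control cells, 4 of them in 1 cell, and 102 UMIs in 32 IL-12 cells. The levels were 15 and 108.7 CPM, 7.22-fold (3 to 22.7) higher in IL-12, and 2.53% and 17.3% of cells held a UMI, or 0% and 5.41% after thinning; 0.588% and 1.51% of neutrophils did. Of the Ifng cells, 2 and 27 also held Nkg7 and 2 and 27 had a recorded clone.

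Nkg7, a granule protein of cytotoxic lymphocytes, stood at 228.7 CPM in control cells against 900.4 in those of IL-12, 3.94-fold (3.11 to 5.05) higher, and was detected in 26.6% and 51.9% of cells (15.2% and 30.3% after thinning). Gzmk, a granzyme of memory-like effector cells, stood at 15 and 128.9 CPM, 8.57-fold (3.57 to 26.9) higher. Cxcr6, a chemokine receptor of tissue T cells, stood at 177.5 and 433.7 CPM, 2.44-fold (1.86 to 3.27) higher, and was detected in 11.4% and 20.5% of thinned cells. In cluster 9 alone Nkg7 and Cxcr6 had log2 ratios of 2.15 and 1.48, while Gzmk had 0 UMIs in control (up to 53.9 CPM) and 67.5 CPM (41.3 to 104.3) in IL-12. Within IL-12 all 3 were highest in cluster 5, with Nkg7 at 1335.8 CPM. Ccl5, a chemokine of effector cells, stood at 460.4 and 926.0 CPM, but 100 of 153 control UMIs lay in 1 cell; its log2 ratio was 1.01 with that cell and 2.36 without the top cell of each library. Cxcr3 stood at 30.1 and 65 CPM, 2.16-fold (1.1 to 4.73) higher, yet the share of cells with a UMI was 7.59% and 6.49% after thinning, so no difference could be read from it at this depth. Gzmb, the main granzyme of cytotoxic cells, stood at 243.7 and 230.2 CPM over all cells; in cluster 9 it had 1 UMI in control (14.6 CPM) and 86 in IL-12 (290.4 CPM), while control cluster 8 held it at 373.7 CPM and IL-12 clusters 5 and 12 at 209.1 and 188.3 CPM. Runx3, a factor of cytotoxic and Th1 cells, stood at 433.3 and 123.6 CPM, 3.51-fold (2.73 to 4.52) lower.

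Some of these genes also stood higher in Cd8-only cells of the same libraries, where 3.53% of 6636 measured genes were called higher and 14.1% lower. Ifng was at 107.9 and 268.5 CPM there, Nkg7 at 2199.5 and 3743.6 CPM and Ccl5 at 2652.6 and 7446.1 CPM, log2 ratios of 1.31, 0.77 and 1.49. Both comparisons use the same pair of libraries. Of the IL-12 receptor genes, Il12rb2 had 4 and 16 UMIs, just enough for the lists, and was called neither higher nor lower. Il12rb1, with 1 and 6 UMIs, and Tbx21, the Th1 lineage factor, with 6 and 10, were too sparse to compare. The same held for Il2 (0 and 6), Il17a (1 and 2) and Cxcr5 (0 and 1). Il10, an inhibitory cytokine, had 12 and 8 UMIs and Bcl6, the factor of follicular helper cells, 20 and 7; both held enough for the lists and were called lower, at ratios of 4.24 (1.59 to 11.9) and 8.07 (3.28 to 22.6). Il21 is not in the table.

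The genes with the largest ratios fell into 3 kinds. The first are genes known from neutrophils and other myeloid cells: Il1a, Hcar2, Clec7a, Ccrl2 and Cxcl1, together with Rsad2, an interferon-induced antiviral gene, and the peptide gene Rln3. Hcar2, a receptor for niacin, stood at 36.1 and 517.9 CPM and Ccrl2, a receptor for chemerin, at 66.2 and 753.4 CPM, 14.3-fold (8.14 to 28) and 11.4-fold (7.46 to 18.3) higher in IL-12. In neutrophils of the same libraries Hcar2 stood at 834.5 and 3298.7 CPM and Ccrl2 at 1554.1 and 4644.0 CPM. Without clusters 11 and 12, the log2 ratio of Hcar2 was -0.21, of Cxcl1 -1.09, of Il1a 1.14, of Ccrl2 1.10, of Rsad2 1.24 and of Clec7a 1.55, so for Hcar2 and Cxcl1 the higher level rested on the cells of cluster 12. Tnf, which had 6 and 157 UMIs and a log2 ratio of 3.14, had 0.81 without them. Over all these cells the ratios were 23-fold (3.99 to 923.0) for Il1a, 12.2-fold (4.67 to 45.5) for Clec7a, 11.9-fold (4.53 to 44.2) for Cxcl1, 13.3-fold (4.45 to 65.6) for Rsad2 and 11-fold (2.91 to 92.7) for Rln3.

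The second kind differed in the same direction in Cd8-only cells, neutrophils and macrophages. Gpx4, an enzyme that reduces lipid peroxides, stood at 15 and 288.8 CPM (19.2-fold, 8.12 to 59.6); its log2 ratio of 4.17, the largest once 1 CPM was added to both levels, stood beside 3.39 in Cd8-only cells, 1.97 in neutrophils and 2.37 in macrophages. Zbed5 had 3.24 beside 2.84, 2.59 and 2.41, and the pseudogene Tpt1-ps6, whose reads may belong to its parent gene, 3.08 beside 3.02, 3.18 and 2.75. Lars2, the mitochondrial leucyl-tRNA synthetase, stood at 3794.3 and 498.7 CPM, a log2 ratio of -2.93 beside -2.09, -1.77 and -1.89. These differences were found across the cell types of the libraries and are not particular to Cd4-only cells.

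The third kind is Ly6c2, a surface protein of activated and memory T cells that shares near-identical sequence with Ly6c1. It had 3 UMIs in 1 control cell and 154 in 21.6% of IL-12 cells, 9.03 and 164.1 CPM, a ratio of 18.2 (6.11 to 89.1); after thinning the shares were 0% and 6.49%. In Cd8-only cells it stood at 87.4 and 365.6 CPM. Among the genes at the other end, Gzma (231.7 and 18.1 CPM) rested on 57 of 77 control UMIs in 1 cell and Hsph1, a heat shock protein (129.4 and 24.5 CPM), on 25 of 43 in 1 cell. Epas1, the hypoxia-inducible factor HIF-2 alpha, stood at 331.0 and 56.5 CPM, 5.86-fold (4.19 to 8.29) lower, with a log2 ratio of -1.94 in Cd8-only cells. The Rac exchange factor Tiam1 (5.9-fold lower), the insulin receptor substrate Irs2 (5.03-fold), the ubiquitin ligase Huwe1 (4.97-fold), Mkln1 (5.42-fold), the vesicle protein Vamp1 (5.48-fold) and Neb (4.89-fold) completed the 10. In thinned Cd8-only cells the share with Huwe1 was also lower in IL-12, at 11.3% and 6.18%.

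For the lists that follow, the shares over all genes with 20 UMIs or more were 11% higher and 18.2% lower. Tnfsf8, the CD30 ligand, stood at 547.6 and 229.1 CPM, 2.39-fold (1.95 to 2.93) lower in IL-12, but in cluster 9 alone it was higher, with a log2 ratio of 0.74; control cluster 8 held it at 728.8 CPM. S1pr1, the receptor that lets T cells leave tissue, stood at 297.9 and 70.3 CPM, 4.24-fold (3.07 to 5.87) lower, and was the only gene called among 9 naive and memory genes; Tcf7 (114.3 and 69.3 CPM) and Il7r (752.2 and 493.4 CPM) differed by less than 2-fold. None of 8 exhaustion genes was called, Pdcd1 being at 264.8 and 245.1 CPM and Ctla4 at 649.9 and 629.8 CPM, and none of 9 helper identity genes, with Icos at 1080.2 and 914.3 CPM and Cd40lg at 54.2 and 35.2 CPM. Of 17 interferon-response genes, 4 were called higher (Isg15, Isg20, Gbp2 and Usp18), with a list median of 0.40. Isg15, a ubiquitin-like interferon target, stood at 282.8 and 868.4 CPM, 3.07-fold (2.48 to 3.84) higher, and its log2 ratio of 1.62 was 0.55 without clusters 11 and 12; that of Gbp2 went from 1.29 to 0.79. In neutrophils, where 5.1% of measured genes were called higher and 18.1% lower, Isg15 stood at 1939.7 and 5386.0 CPM. Of 8 chemokine receptor genes, Ccr1, Cxcr3 and Cxcr6 were called higher and Cxcr4 lower, and of 12 T cell receptor signalling genes Lat alone was called. Of 12 MHC class I genes, 1 was called higher (Psmb10) and 1 lower (Nlrc5), with a median log2 ratio of 0.39. H2-K1 and B2m stood 1.9-fold and 1.69-fold higher and were not called.

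Among Foxp3+ cells, 15 control and 47 IL-12 cells were compared, with 64585 and 244753 UMIs. Of 738 measured genes, 16.7% were called higher in IL-12 and 10.2% lower. Of 12 regulatory identity genes with 20 UMIs or more, 1 was called higher (Capg) and none lower. Ikzf2, the transcription factor Helios, stood at 1424.5 and 1041.9 CPM, Il2ra, a subunit of the high-affinity IL-2 receptor, at 1037.4 and 715.0 CPM, Ctla4 at 1316.1 and 788.6 CPM and Tnfrsf18 (GITR) at 758.7 and 915.2 CPM. Tnfrsf4 (OX40) stood at 727.7 and 1266.6 CPM, 1.74-fold (1.28 to 2.42) higher, and Tnfrsf9 (4-1BB) at 2616.7 and 1785.5 CPM, 1.47-fold (1.22 to 1.75) lower. The measured levels of these genes thus lay within 2-fold of each other, but the interval of Tnfrsf4 passed 2-fold. With 15 control cells, alike levels cannot be read from this.

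Of 11 tissue regulatory genes, Gata3, Il1rl1 and Nt5e were called lower and Ccr8 and Batf higher; over all genes with 20 UMIs or more in Foxp3+ cells, 17.2% were called higher and 15.9% lower. Gata3 stood at 820.6 and 167.5 CPM, 4.9-fold (3.2 to 7.55) lower in IL-12, and 40% and 14.9% of thinned cells held a UMI. Il1rl1 stood at 1021.9 and 367.7 CPM, 2.78-fold (1.99 to 3.86) lower, and 60% and 27.7% of thinned cells held a UMI. Ccr8, a chemokine receptor of tumour regulatory T cells, had 6 and 64 UMIs, at 92.9 and 261.5 CPM, 2.81-fold (1.22 to 7.95) higher. Batf, an AP-1 family factor of effector regulatory cells, stood at 154.8 and 314.6 CPM. Areg, an epithelial growth factor, stood at 603.9 and 943.8 CPM, with 22 of 39 and 166 of 231 UMIs in 1 cell each, and Klrg1 at 123.9 and 228.8 CPM.

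Of 10 Th1 genes in Foxp3+ cells, 4 were called higher in IL-12 (Cxcr3, Ccl5, Cxcr6 and Tnf) and 2 lower (Bhlhe40 and Runx3), with a median log2 ratio of -0.32; of 4 cytotoxic genes, Nkg7, Ctsw and Ccl5 were called higher and none lower. Ccl5 had 3 and 132 UMIs, 46.5 and 539.3 CPM, a ratio of 11.6 (3.89 to 57), and 0% and 23.4% of thinned cells held a UMI. Nkg7 stood at 77.4 and 502.5 CPM, 6.49-fold (2.71 to 20.3) higher, with 48 of 123 IL-12 UMIs in 1 cell. Cxcr3 had 2 UMIs in 2 control cells and 32 in 14 IL-12 cells, 31 and 130.7 CPM, a ratio of 4.22 (1.08 to 36.4); both control cells and 7 of the 14 also held Il1rl1. Isg15 stood at 247.7 and 1058.2 CPM, 4.27-fold (2.58 to 7.59) higher. Gzmb, by contrast, stood at 511.0 and 416.7 CPM.

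The other ranked genes of Foxp3+ cells were Tpt1-ps6 (at least 9.76-fold higher, against a floor of 3 counts over the control group, as for every bound here) and Gpx4 (at least 7.04-fold), Spp1 or osteopontin (1 and 107 UMIs, ratio 28.2, 4.96 to 1125.5), the cold-induced Rbm3 (1 and 58 UMIs, ratio 15.3, 2.64 to 614.8), the histone gene Hist1h2ao (3 and 141 UMIs, ratio 12.4, 4.16 to 60.9), Cxcl1 (2 and 71 UMIs, ratio 9.37, 2.5 to 78.9), Plac8 (2 and 70 UMIs, ratio 9.24, 2.46 to 77.8), the antiviral Ifitm3 (8.77-fold, 3.35 to 32.7) and Plaat3 (3 and 88 UMIs, ratio 7.74, 2.56 to 38.3). Hist1h2ao has near-identical copies in the histone family, so its count is uncertain. The direction of Cxcl1 reversed in 3 alternatives, with log2 ratios of -2.62 without clusters 11 and 12, -7.71 in the class called CD4 T cells alone and -1.44 without cells with over 2% of neutrophil-marker UMIs. Of the Spp1 UMIs in IL-12, 69 of 107 lay in 1 cell. The 5 macrophage markers summed to 46.5 and 478.0 CPM in Foxp3+ cells, with C1qa at 0 and 32 UMIs and C1qb at 0 and 21; their part in these ratios was not tested. At the lower end stood the neutrophil gene Retnlg, whose 96 and 42 UMIs lay in 1 cell for 93 and 42 of them, Cstdc4 (57 of 67 and 35 of 37 in 1 cell) and Cxcl3 (53 of 55 and 24 of 38), with Cstdc5, a near copy of Cstdc4. Neutrophil markers summed to 16335.1 and 11742.5 CPM in Foxp3+ cells, and 2 and 3 of these cells held over 2% of such UMIs. Lars2 was 7.12-fold lower. The remaining genes were spread over more cells: Fosl2, an AP-1 factor (572.9 and 122.6 CPM), Ahr, the aryl hydrocarbon receptor (464.5 and 110.3 CPM), the scaffold Ahnak (805.1 and 187.9 CPM) and the calcium pump Atp2b4 (464.5 and 114.4 CPM) were 4.67-, 4.21-, 4.28- and 4.06-fold lower in IL-12. Fewer thinned Cd8-only cells of IL-12 held them too. The shares were 46.8% and 20.8% for Fosl2, 2.23% and 1.12% for Ahr, 44.9% and 19.3% for Ahnak and 16.1% and 9.66% for Atp2b4. The direction is therefore not particular to Foxp3+ cells.

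Among Foxp3- cells, 64 control and 138 IL-12 cells were compared, and of 2171 measured genes 14.3% were called higher in IL-12 and 15.4% lower. The Th2 genes stood lower here as well. Gata3 was at 642.4 and 188.8 CPM, 3.4-fold (2.69 to 4.3) lower, and Il1rl1 at 649.8 and 132.6 CPM, 4.9-fold (3.78 to 6.38) lower; Il5 and Il13, found here only, were at 272.6 and 103.8 and at 317.4 and 118.2 CPM. Il2ra stood at 489.2 and 167.2 CPM, 2.93-fold (2.26 to 3.79) lower, with 44 of 131 control UMIs in 1 cell. Of 11 regulatory identity genes, Il2ra, Ikzf4, Izumo1r and Nrp1 were called lower and Capg higher. The 4 Th1 genes called higher were Ifng (18.7 and 142.7 CPM, 7.64-fold, 3.17 to 24.1), Cxcr6 (209.1 and 549.2 CPM, 2.63-fold, 1.98 to 3.54), Hopx and Tnf, of 12 with 20 UMIs or more. Runx3 was called lower among them. Gzmk (18.7 and 170.1 CPM, 9.11-fold, 3.8 to 28.6), Nkg7 (265.2 and 1040.8 CPM, 3.93-fold, 3.07 to 5.08) and Klrd1 (56 and 144.2 CPM, 2.57-fold, 1.49 to 4.77) stood higher with Ctsw among 9 cytotoxic genes, of which Gzma was called lower. Over all genes with 20 UMIs or more, 12.7% were called higher in these cells and 20.1% lower. Ms4a4b, a membrane protein of T cells, stood at 373.5 and 869.2 CPM, 2.33-fold (1.88 to 2.91) higher. Ccr8 was at 63.5 and 64.9 CPM and Cxcr3 at 29.9 and 41.8 CPM, with an interval of 0.624 to 3.54 for the ratio of the latter.

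Neutrophil markers summed to 2464.9 and 7372.0 CPM in Foxp3- cells, and genes known from neutrophils again led the ranks. Cyp4f18, which inactivates leukotriene B4, had 0 and 73 UMIs, at least 9.39-fold higher. Hcar2 (22.1-fold, 10.6 to 55.2), Clec7a (2 and 122 UMIs, ratio 23.5, 6.38 to 196.6), Il1a (1 and 59 UMIs, ratio 22.8, 3.93 to 914.5), Ankrd33b (1 and 50 UMIs, ratio 19.3, 3.31 to 777.3), Ccrl2 (13.3-fold, 8.36 to 22.6) and the chemokine Ccl4 (14-fold, 8.56 to 24.7, with 238 of 581 IL-12 UMIs in 1 cell) followed, and Ly6c2 (3 and 138 UMIs, ratio 17.8, 5.95 to 87.2), Gpx4 (14.7-fold) and Zbed5 (3 and 105 UMIs, ratio 13.5, 4.5 to 66.6) completed the 10. Ccl4 had a log2 ratio of -0.78 without clusters 11 and 12. At the other end, Gzma was 18.1-fold lower, Lars2 7.97-fold, Huwe1 6.48-fold, Irs2 5.79-fold, Epas1 5.71-fold, Hsph1 5.64-fold, Hnrnpa0 5.26-fold, the cohesin cofactor Pds5a 5.18-fold, Mkln1 5.18-fold and the kinase Map3k1 5.07-fold. Several were also found in fewer thinned Cd8-only cells of IL-12. These were Gzma (11.1% and 5.29%), Huwe1 (11.3% and 6.18%), Epas1 (5.66% and 2.24%), Hsph1 (7.55% and 5.26%) and Hnrnpa0 (18.4% and 5.58%).

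Within each library, Foxp3+ cells were then set against Foxp3- cells. This comparison is made inside 1 library, so treatment and preparation do not enter it, and the other library serves as a second reading; the cells of a library still came from 1 pool. Of 792 genes measured in both libraries, 15 (1.89%) were called higher in Foxp3+ cells in both and 17 (2.15%) lower in both. In the control library alone, 7.87% of 813 genes were called higher and 6.89% lower, and in IL-12 4.74% of 2027 and 5.43%.

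Ikzf2, of the regulatory identity list, ranked highest, followed by Areg, of the tissue regulatory list. Ikzf2 stood at 63.5 CPM in Foxp3- and 1424.5 CPM in Foxp3+ control cells, and at 108.1 and 1041.9 CPM in IL-12, 22.4-fold (13.3 to 40.2) and 9.64-fold (7.42 to 12.6) higher. It was detected in all 15 control and 95.7% of IL-12 Foxp3+ cells, against 10.9% and 14.5% of Foxp3- cells, and after thinning in 86.7% and 61.7% against 7.81% and 8.7%. Cd8-only cells also held Ikzf2, in 60.6% and 37.2% of cells, or 31% and 11.9% after thinning. Ctla4 was detected in 70.5% and 70.1% of Cd8-only cells. Of the regulatory identity list, 5 of 11 genes were called higher in control (Il2ra, Ikzf2, Ikzf4, Ctla4 and Capg) and 8 of 12 in IL-12 (Il2ra, Ikzf2, Ikzf4, Tnfrsf18, Izumo1r, Itgae, Capg and Tigit), where 10.4% and 6.93% of all genes with 20 UMIs or more were; Socs2 was called lower in control and Nrp1 in IL-12, where 13.9% and 7.98% of all genes were. Il2ra was 2.12-fold (1.56 to 2.87) and 4.28-fold (3.36 to 5.45) higher and Ctla4 2.69-fold (2.02 to 3.56) and 1.37-fold (1.15 to 1.64). The Helios relative Ikzf4 (Eos) was 5.44-fold (2.71 to 11.2) and 6.24-fold (3.6 to 11.2) higher. Cd3e, a gene of all T cells, differed little between the groups, at 653.6 and 603.9 CPM in the control library and 787.1 and 841.7 CPM in the other.

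Of the genes of tissue and tumour regulatory cells, 3 of 10 were called higher in control (Areg, Batf and Tnfrsf9) and 7 of 12 in IL-12 (Ccr8, Il1rl1, Areg, Klrg1, Batf, Tnfrsf9 and Maf), beside the shares of 10.4% and 6.93% over all genes, and none lower. Areg stood 9.51-fold (5.26 to 17.9) and 6.55-fold (5.16 to 8.36) higher in Foxp3+ cells, with the uneven counts given above. Tnfrsf9 was 3.5-fold (2.84 to 4.32) and 2.55-fold (2.24 to 2.91) higher, and Tnfrsf4 2.01-fold (1.39 to 2.87) and 2.98-fold (2.53 to 3.51). Klrg1 had 1 UMI in control Foxp3- cells and 8 in Foxp3+ cells, and in IL-12 stood at 13 and 228.8 CPM, 17.6-fold (8.66 to 40.6) higher. Il1rl1 was 1.57-fold (1.17 to 2.1) higher in control and 2.77-fold (2.05 to 3.75) in IL-12, and 11 of 15 and 26 of 47 Foxp3+ cells held a UMI of it. All of these also held Ikzf2, but so did 15 of 15 and 45 of 47 Foxp3+ cells, so the overlap shows no link between the genes. Gata3 did not separate the groups, at ratios of 1.28 (0.921 to 1.75) and, lower in Foxp3+ cells, 1.13 (0.788 to 1.64). Ccr8 was 1.46-fold (0.472 to 3.89) higher in control and 4.03-fold (2.71 to 6.04) in IL-12, and Cxcr3 1.04-fold (0.107 to 5.19) and 3.13-fold (1.83 to 5.36); the difference between libraries was not tested for either. The other ranked genes were the chemokine receptor Ccr2 (3.92- and 4.96-fold), the nuclear receptor cofactor Nrip1 (3.53 and 3.32), Ly6a or Sca-1 (3.84 and 3.14), the integrin chain Itgav (2.89 and 3.06), Ahr (4.78 and 2.64), the small GTPase Arl5a (2.54 and 2.92) and Gzmb (2.85 and 2.54), of which 28 of 33 control Foxp3+ UMIs lay in 1 cell.

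**Figure D4:**
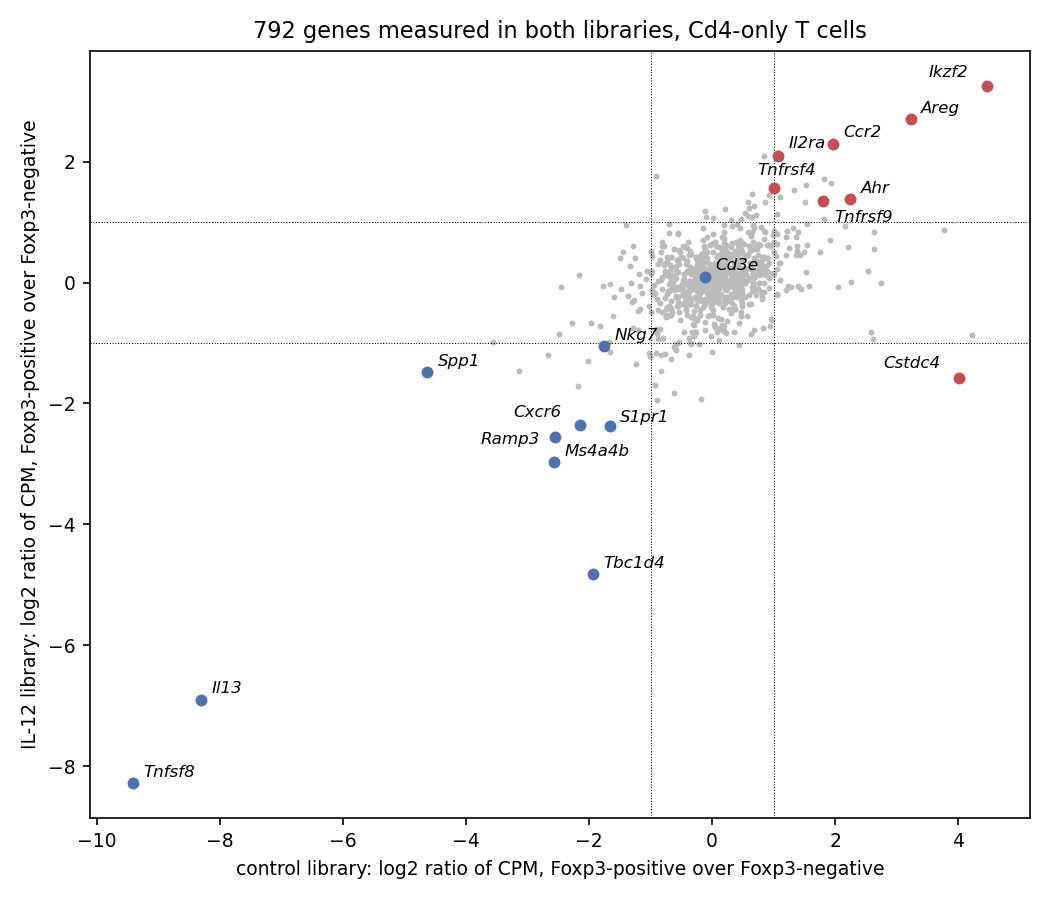
Log2 ratio of levels (CPM plus 1) in Foxp3+ over Foxp3- Cd4-only cells for 792 genes, control library on the x axis and IL-12 library on the y axis; dotted lines mark 2-fold, and named genes are red where the control ratio is above 0 and blue where it is below. Ikzf2 lay at 4.47 and 3.26, and Tnfsf8 and Il13, without UMIs in Foxp3+ cells, lay at the lower left, where the position depends on the pseudocount.

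Of 6 helper identity genes in control, 1 was called higher in Foxp3+ cells (Tnfrsf4) and 1 lower (Cd28), with a median log2 ratio of 0.61. Of 8 in IL-12, 1 was higher (Tnfrsf4) and 1 lower (Cd40lg), with a median of 0.02. Over all genes with 20 UMIs or more, 10.4% were called higher and 13.9% lower in control, and 6.93% and 7.98% in IL-12. Cd40lg of this list, and Tnfsf8, Il13 and Il5 of other lists, were without UMIs in Foxp3+ cells of either library. Tnfsf8 had 182 UMIs in Foxp3- and 0 in Foxp3+ control cells, at least 14.6-fold lower, and 215 and 0 in IL-12, at least 25.3-fold lower. Cd40lg had 18 and 0 UMIs in the control library, then 33 and 0, at least 1.45-fold and 3.88-fold lower. Il13 (85 and 0, then 82 and 0 UMIs) was at least 6.83-fold and 9.64-fold lower, and Il5 (73 and 0, then 72 and 0) at least 5.87-fold and 8.47-fold; both came from few cells. Tcf7, a factor of naive and memory T cells, had 37 and 1 UMIs in control, a ratio of 8.92 (1.51 to 361.9), and 65 and 0 in IL-12, at least 7.64-fold lower. Among Foxp3- cells, 20 control and 36 IL-12 cells held Tcf7, and 12 and 15 of these also held Tnfsf8. Tnfsf8 was found in 32 of 64 and 47 of 138 Foxp3- cells, and a link between the 2 genes was not tested.

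Of the cytotoxic list, 3 of 5 genes were called lower in control (Gzma, Nkg7 and Ccl5) and 5 of 9 in IL-12 (Gzmk, Nkg7, Fasl, Klrd1 and Klrk1). Gzmb was called higher in both. Over all genes with 20 UMIs or more, 13.9% were called lower and 10.4% higher in control, and 7.98% and 6.93% in IL-12. As given above, most control UMIs of Gzma and Ccl5, and most control Foxp3+ UMIs of Gzmb, lay in 1 cell each. Of the chemokine receptors in IL-12, 4 of 8 were called higher in Foxp3+ cells (Ccr2, Ccr7, Ccr8 and Cxcr3) and 1 lower (Cxcr6), with a median log2 ratio of 1.23. S1pr1 stood at 343.6 and 108.4 CPM in the control library and 89.4 and 16.3 CPM in the other, 3.17-fold (1.48 to 8.11) and 5.47-fold (2.03 to 20.7) lower in Foxp3+ cells. Cxcr6 was 4.5-fold and 5.17-fold (3.47 to 8.02) lower, the first from 3 UMIs in Foxp3+ cells with an interval of 1.46 to 22.5. Ms4a4b was 6.03-fold (2.28 to 22.6) and 7.88-fold (5.36 to 12.1) lower, and Ramp3, a receptor-modifying protein, 5.88-fold (2.93 to 13.8) and 5.96-fold (4.04 to 9.14). Nkg7 was 3.43-fold (1.4 to 10.9) and 2.07-fold (1.71 to 2.53) lower, but not in the class called CD4 T cells alone, where its log2 ratios were 1.03 and 0.02. Ifng had 5 and 0 UMIs in control, and in IL-12 stood at 142.7 and 12.3 CPM from 99 and 3 UMIs, a ratio of 11.6 (3.87 to 57.4); Gzmk had 5 and 0, then 118 and 3 UMIs, a ratio of 13.9 (4.63 to 68.3). Tbc1d4, a regulator of glucose transporter traffic, had 48 and 3 UMIs in control, a ratio of 3.86 (1.24 to 19.4), and 99 and 1 in IL-12, a ratio of 34.9 (6.13 to 1393.4). Hdc, the histamine-forming enzyme that myeloid cells also express, was 4.56-fold and 3.28-fold lower. Spp1 (109 and 1 UMIs in control, 1219.5 and 437.2 CPM in IL-12) and Plac8 (75 and 2 UMIs, 795.7 and 286.0 CPM) completed the ranked genes. Neutrophil markers summed to 2464.9 CPM in Foxp3- and 16335.1 CPM in Foxp3+ control cells and to 7372.0 and 11742.5 CPM in IL-12; their part in the genes that myeloid cells share was not tested.

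The receptor clones of Cd4-only cells were nearly all small. A clone, a set of cells with the same T cell receptor as recorded by the authors, was available for 39 of 79 control cells (49.4%, 37.9 to 60.9) and 148 of 185 IL-12 cells (80%, 73.5 to 85.5). The 39 control cells were 39 different clones, each without another T cell. The 148 IL-12 cells were 138 clones, of which 8 held more than 1 Cd4-only cell (18 cells, at most 3 per clone), and 121 cells (81.8%) were alone among all T cells. In Cd8-only cells 401 control cells fell into 135 clones and 2959 IL-12 cells into 397, the largest with 96 and 637 cells, and 22.9% and 9.83% of cells were alone. None of the 8 IL-12 clones with more than 1 Cd4-only cell held both Foxp3+ and Foxp3- cells; in control no clone had a second cell. In IL-12, 1 clone of a Cd4-only cell was shared with Cd8-only cells and 8 with T cells that had neither coreceptor UMI. The share of cells with a clone differed between libraries and limits what clone sizes can show.

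The authors' cell cycle phases, present for 39 and 144 of these cells, called 56.4% (39.6 to 72.2) of control cells G1, 25.6% S and 17.9% G2M, and 22.2% (15.7 to 29.9), 38.2% and 39.6% of IL-12 cells. Cd8-only cells were called G1 in 29.3% and 17.2%. Mki67, a gene of dividing cells, did not follow: 7 control cells (8.86%) and 9 IL-12 cells (4.86%) held a UMI, and the level was 21.1 and 22.4 CPM. No statement on cycling can be made from the phase calls alone.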

How the data were processed

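Gene expression and T cell receptor libraries of CD45+ cells were sequenced for 1 pool of 3 mice per treatment. Per the submitters' processing notes, Cell Ranger 2.1.0, STAR 2.6.1, Partek and the mm10 genome were used, with no step assigned to any of them there. Each expression table deposited by the authors gives, for 11407 genes in every cell, log2 values of CPM plus 1 (the scale was inferred from the numbers), beside the cell's class, cluster and clone. The deposited receptor table gives cell cycle phases and score values per cell; the scores were not used. In that table a column gives IL-12 for all cells and in the control table a column reads isotype; samples were assigned from the labels and the library column.

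UMIs were recovered by taking a cell's smallest value above 0 as 1 UMI; 6 of 4251108 values in control and 13 of 13883686 in IL-12 missed a whole number by more than 0.1. The table's genes hold 72.9% and 70.4% of UMIs, and library totals were 17306854 and 59956933. UMIs were summed over cells and scaled to CPM; 1 CPM was added before log2 ratios were taken. Shares were also taken after thinning cells to 1000 UMIs. Python 3.11.15, numpy 2.4.6, scipy 1.17.1 and pandas 2.3.3 were used, and the computation was tested on simulated data.

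With 1 library per treatment no test was made. A gene was measured with 50 UMIs or more in both groups together and a UMI in at least 5% of cells of either, and called at 2-fold; genes of the 19 gene lists needed 20 UMIs. Named are the 10 highest and 10 lowest ratios per comparison (between Foxp3+ and Foxp3- cells by the ratio nearer 0 of the 2 libraries), up to 4 genes per list and 31 further genes whatever their rank, leaving out receptor segment, immunoglobulin, mitochondrial, ribosomal, Xist and Y-linked genes in the ranks; further genes named beside these were chosen after their values were seen. Not every gene that this rule names is reported here. The cells, lists and rules were chosen with earlier results of these data known.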

Additional observations from a re-analysis of the deposited data

Results flagged for a closer look

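Some values point in opposite directions in groups that were compared the same way; the difference itself was not tested in any of them. Cstdc4, a cystatin-family gene with near copies, stood higher in Foxp3+ than in Foxp3- cells in the control library (log2 ratio 4.01) and lower in the IL-12 library (-1.58). Between treatments its log2 ratio was -2.77 in Foxp3+ and 2.82 in Foxp3- cells, and that of the chemokine gene Cxcl3 was -2.45 in Foxp3+ and 2.64 in Foxp3- cells. In Foxp3+ cells 57 of 67 control UMIs of Cstdc4 and 53 of 55 of Cxcl3 lay in 1 cell, and both genes are also expressed by neutrophils, whose markers summed to 16335.1 and 11742.5 CPM in Foxp3+ and 2464.9 and 7372.0 CPM in Foxp3- cells of control and IL-12. Without cells that held over 2% neutrophil-marker UMIs, a limit chosen after seeing the data, the treatment ratios in Foxp3+ cells were 0.53 and 1.88.

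Outside the Cd4-only cells, Foxp3 was found in T cells with no Cd4 and no Cd8 UMI: in 3.08% (0.845 to 7.69) of 130 control cells and 12.7% (9.8 to 16.1) of 465 IL-12 cells, above the 0 of 2721 and 0.169% of neutrophils. A UMI of Cd3d, Cd3e or Cd3g was found in 52.3% and 74.2% of these T cells.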

How the results depend on the processing

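Alternatives were computed one at a time. With cells of 3000 UMIs or more, Cd4-only cells were 6.94% of control T cells; of the class called CD4 T cells they were 15.6% and 9.62%, of the class called CD8 T cells 2.73% in IL-12, of thinned T cells 5.93% and 1.98%, and of all sorted cells 1.87% and 1.43%. With the rule applied to thinned cells, Foxp3 was found in 8.16% of 49 control and 19% of 84 IL-12 Cd4-only cells.

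Counts of genes called higher and lower followed the threshold and the number of UMIs. In all Cd4-only cells they were 319 and 421, and 549 and 915 with 20 UMIs as the minimum, 668 and 848 at 1.5-fold, 120 and 28 in the CD4 class alone and 111 and 46 after thinning. In Foxp3+ cells the same settings gave 322 and 298, 238 and 169, 30 and 10, and 22 and 4, and 37 genes were lower without the cell with most UMIs of each gene, against 123 and 75. In Foxp3- cells they gave 541 and 867, 571 and 618, 90 and 19, and 84 and 31, against 311 and 335. Between Foxp3+ and Foxp3- cells in both libraries they gave 44 and 46, 58 and 41, 2 and 3, and 2 and 2, against 15 and 17, and 9 genes were higher without the top cell. Fewer cells or UMIs leave fewer genes measured in the CD4 class and after thinning. The other 62 values for shares and counts did not differ beyond these limits.

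Some genes reversed. In the CD4 class alone (28 control and 96 IL-12 cells), the log2 ratios of IL-12 over control were -2.79 for Cxcl1, -0.11 for Cxcr3, -2.03 for Hcar2, 0.06 for Hsph1, -0.49 for Il1a, -0.11 for Tnf and 0.74 for Tnfsf8 in all cells; 4.13 for Cstdc4, 4.13 for Cstdc5 and -7.71 for Cxcl1 in Foxp3+ cells; and -1.70 for Cstdc4, -0.57 for Cxcl3, -1.78 for Il1a, -0.02 for Isg15 and 0.86 for Tnfsf8 in Foxp3- cells. Foxp3+ over Foxp3- ratios were then -6.42 for Cstdc4, -4.17 for Gzmb, 1.03 for Nkg7 and -1.02 for Tnfrsf4 in control and 0.02 for Nkg7 in IL-12. Without clusters 11 and 12 the treatment ratios were -1.09 for Cxcl1 and -0.21 for Hcar2 in all cells, -2.62 for Cxcl1 in Foxp3+ cells, and -0.78 for Ccl4, -1.16 for Cstdc4 and -1.28 for Cxcl3 in Foxp3- cells. Without the top cell, Cxcl3 was 0.71 in Foxp3+ cells and the Foxp3+ over Foxp3- ratio of Gzmb -0.55 in control. After thinning, Cxcr3 was -0.13 in all cells and the Foxp3+ over Foxp3- ratio of Arl5a -0.03 in IL-12. The 2 settings added after seeing the data also reversed values: without cells with over 2% neutrophil-marker UMIs, Foxp3+ cells gave 0.53 for Cstdc4, -1.44 for Cxcl1 and 1.88 for Cxcl3, and the Foxp3+ over Foxp3- ratio of Cstdc4 in IL-12 was 0.63; in cells with a recorded clone Il5 was 1.06. The cause was not tested for any of these. Of the values for single genes, 1358 kept their call or moved by less than their counting interval, 280 moved by more and 35 reversed. No paired analysis was possible because each treatment has 1 library.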
